A study of Oryza sativa with 4 samples.

Results

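Nucleosomes on the unanchored sequences of the rice genome, the pseudomolecules Un and Sy of build MSU7, were described in WT and *oschz1-1* seedlings. The members were taken by position alone, as every nucleosome of the authors' map that was not placed on chromosomes 1 to 12. There were 1592 of them, 234 on Un and 1358 on Sy, which is 0.0942% of the 1690300 nucleosomes listed. The study used MNase-seq on cross-linked chromatin of 30-day-old seedlings, with 2 libraries of WT and 2 of *oschz1-1*. The paper names its rice as the japonica cultivar Nipponbare, and the titles of the WT libraries carry NIP. Seedlings of either genotype were raised on sterile medium, at 30 °C during 14 h of light and at 28 °C during the 10 dark hours. The *oschz1-1* plants carry a deletion of 1 nucleotide in *OsChz1*, made with CRISPR/Cas9, which brings a premature stop codon, and were free of the transgene. A single mutant line was used, so that its effect and other differences between the plants of the lines cannot be told apart. How many seedlings went into a library is not given in the sources used here.

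A nucleosome is a stretch of DNA wrapped around an octamer of histones, and OsChz1 is a chaperone of 1 pair of these histones, H2A with H2B, and of the variant pair with H2A.Z. Micrococcal nuclease cuts the linker DNA, and the fragments left over mark where nucleosomes sat. Occupancy is the density of those fragments, the summit is the base where it is highest, and fuzziness measures how far fragments scatter about it, so that a well-positioned nucleosome has a low fuzziness. Un and Sy are not chromosomes. They join pieces of rice sequence that could not be placed on a chromosome, Un from unanchored clones and Sy from a shotgun assembly. Unplaced pieces of plant genomes are often rich in repeats, to which short reads cannot be assigned uniquely.

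The authors had merged the replicates, so that 1 value per genotype was held for each nucleosome. Differences between genotypes could not be compared with replicate variation, no p-value was computed, and the depth of the libraries is unknown. In place of a test, each value is given beside the lowest and highest of the 12 chromosomes or beside windows along them. This is a description, since sequences of 1 map are not replicates.

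Most of the span of both pseudomolecules held no nucleosome. On Un, summits ran from position 111 to position 628811, yet 93.2% of this span lay in 2 stretches of at least 1000 bp between neighbouring summits, termed empty here. On Sy, from position 161 to position 591781, 54.8% lay in 35 empty stretches. The chromosomes had between 5.17% and 11.8% of their span in such stretches. The listed nucleosomes of Un formed a stretch of 179 from position 111 to position 32571, a stretch of 54 from position 618331 to position 628811, and a lone nucleosome at position 85911. Between the lone nucleosome and the second stretch, 532420 bp were empty, which is longer than the longest empty stretch of the chromosomes, 221325 bp on chromosome 11. Sy was broken into 36 covered stretches, of which 6 were single nucleosomes and the largest held 145 nucleosomes over 30630 bp, from position 324651 to position 355281. Its 3 longest empty stretches measured 61800, 57940 and 41218 bp. Within the covered stretches, nucleosomes were listed about as densely as elsewhere on Sy and more densely on Un, at 5.08 and 5.45 per 1000 bp. The chromosomes had between 4.92 and 5.05 per 1000 bp. Length was counted from the first to the last summit of each stretch, which raises the density of short stretches. The small lead of Sy is therefore not read as a difference. The low number of nucleosomes on Un and Sy thus lay in the empty stretches and not in the covered ones. Reads of low mapping quality had been removed by the authors. What the empty stretches hold was not tested.

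**Figure D1:**
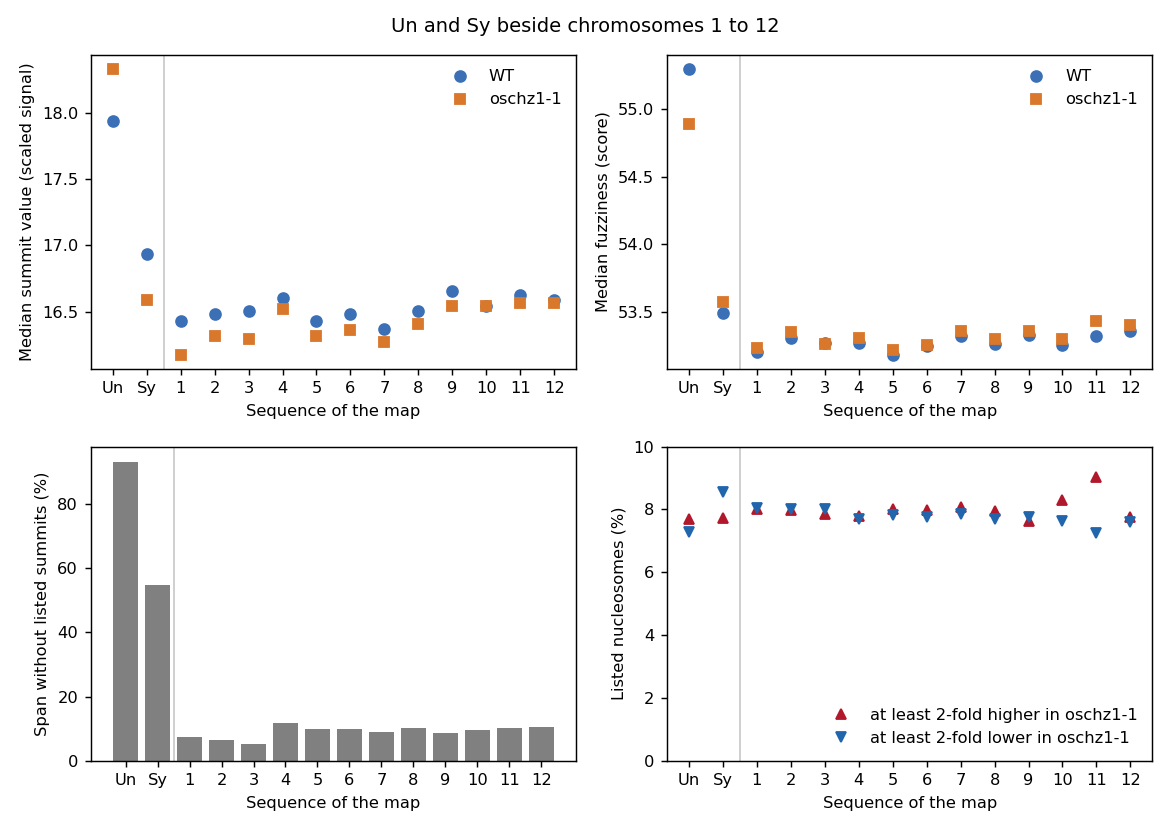
Medians of summit value (scaled signal) and fuzziness (score) at nucleosomes with a summit in the genotype, the percentage of the span without listed summits, and the percentage of nucleosomes at least 2-fold higher or lower in *oschz1-1*, for Un, Sy and chromosomes 1 to 12. Circles are WT and squares *oschz1-1* in the upper panels. Un has the highest medians of both genotypes and 93.2% of its span empty.

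Where nucleosomes were listed, occupancy was somewhat higher than on the chromosomes, more so on Un. The median summit value of WT, a signal scaled by the authors and taken at nucleosomes with a WT summit, was 17.9 on Un (194 nucleosomes) and 16.9 on Sy (1138 nucleosomes). On the chromosomes it ran from 16.4 to 16.7. For *oschz1-1* the medians were 18.3 on Un (198 nucleosomes) and 16.6 on Sy (1146 nucleosomes), against 16.2 to 16.6 on the chromosomes. Un thus stood above the 12 chromosomes in either genotype, by a factor of 1.09 in WT and 1.12 in *oschz1-1* against their pooled median. For Sy the factors were 1.03 and 1.01, and its lead over the highest chromosome in *oschz1-1* was small. The spread among single nucleosomes was far wider than these gaps. On Un, WT values from the lower to the upper quartile covered 14.2 to 22.0, and on Sy they covered 13.5 to 21.4. The 95th percentile of Un, 29.7 in WT and 30.3 in *oschz1-1*, also lay above the chromosomes, which reached 28.8 and 28.7, and that of Sy was 28.7 in either genotype.

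Single nucleosomes give an idea of these signals. The highest WT value of Sy, 47.8 at position 434891, stood beside 40.2 in *oschz1-1*, with summits 50 bp apart. At position 543301 of Sy, WT had 41.0 and *oschz1-1* 40.9. The highest WT value of Un, 47.6 at position 623071, was paired with 29.1 in *oschz1-1*. These strong nucleosomes were not always equal between the maps, as position 349551 of Sy had 41.9 in WT and 24.9 in *oschz1-1*. They were picked for high WT values, so that a lower value in the other map is what the choice itself favours.

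Windows of 10000 bp with at least 10 nucleosomes, taken over all listed ones, showed that occupancy varied along each pseudomolecule. Of the 5 windows of Un, the first, from position 1 to 10000, had the highest WT median (19.3, 48 nucleosomes). Only 0.810% of the 36417 windows of the chromosomes reached that value. Across the 35 windows of Sy, WT medians ran from 13.3, in the window that starts at 350001, to 20.5, in the one that starts at 220001. The lowest window of Un was the last, from position 620001 to 630000, with 15.6 over 45 nucleosomes, which is an ordinary level. Even that lowest window of Un was above the median of the chromosomal windows, 15.2, so that the elevation of Un varied in size along it. The median over Sy hid windows on either side of the chromosomal level.

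Spacing between neighbouring summits was close to that of the chromosomes. The median distance was 190 bp in WT and 180 bp in *oschz1-1* on Un, and 200 bp in either genotype on Sy and on each of the 12 chromosomes. Since most summits lay on a grid of 10 bp (87.5% in WT and 86.0% in *oschz1-1* on Un and Sy together), the shorter median of Un amounts to 1 or 2 steps of that grid. Its arrays were also tighter at the upper quartile, with 260 bp in WT and 250 bp in *oschz1-1*, against 280 to 290 bp on the chromosomes in either genotype. On Sy the upper quartile was 300 bp in WT and 280 bp in *oschz1-1*. Neighbours closer than the length of DNA on a nucleosome core cannot both be occupied on the same DNA molecule. Such pairs made up 22.8% of the 193 WT distances of Un and 20.8% of the 1137 WT distances of Sy. For the 12 chromosomes the range in WT was 19.3% to 20.8%. Un exceeded it, with 44 pairs, and Sy barely did, at 20.84% against 20.79% on chromosome 7. In *oschz1-1* the order was the other way round, with 20.8% on Un, inside the chromosomal range of 19.8% to 21.6%, and 22.1% on Sy, above it. Chromosome 7 set the upper end in both genotypes. On it 98.8% of WT and 98.7% of *oschz1-1* summits lay on the grid, against chromosomal medians of 85.5% and 84.7%. The next highest shares of close pairs were 19.9% in WT, on chromosome 9, and 20.74% in *oschz1-1*, on chromosome 12. Un, at 20.81% in *oschz1-1*, was just above the latter.

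A summit was listed in both genotypes at 1084 of the 1592 nucleosomes (68.1%). The shares were 67.5% on Un and 68.2% on Sy, a little above the 65.7% to 66.7% of the chromosomes. WT alone had a summit at 248 nucleosomes and *oschz1-1* alone at 260. Absence of a summit did not mean absence of signal. At the nucleosomes with a WT summit alone, the median value was 14.4 in WT and still 7.42 in *oschz1-1*, and at those with an *oschz1-1* summit alone it was 7.42 in WT and 14.0 in *oschz1-1*. No WT summit on Un or Sy had a value below 9.66 and no *oschz1-1* summit one below 8.53. Of the nucleosomes listed without a WT summit, 23.5% nevertheless had a WT value at or above that lowest level, as did 33.9% of those without an *oschz1-1* summit for *oschz1-1*. Over the whole map the lowest values of a summit were 3.33 in WT and 4.57 in *oschz1-1*, and these shares were 93.1% and 85.5%. The lowest level thus depends on how many nucleosomes are looked at and is not a limit for a summit. An *oschz1-1* summit that WT lacked lay within 200 bp of 62 of the 248 summits of WT alone. The shares were 36.1% on Un (13 of 36) and 23.1% on Sy (49 of 212), on either side of the 27.3% of the chromosomes.

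Values near 0 were rare. On Sy, 3 nucleosomes were below 1 in a genotype (0.221%), and on Un it was 0 of 234, against 0.277% on the chromosomes. At position 216981 of Sy the WT value was 0 and that of *oschz1-1* 10.9. At position 359221 WT had 12.6 and *oschz1-1* 0, and at position 441113 WT had 10.7 and *oschz1-1* 0.865. No run of at least 5 consecutive nucleosomes below 1 in one genotype and at or above 5 in the other was found among the 1592 nucleosomes. Such runs are rare on the chromosomes too, with 53 over 1688708 nucleosomes, all of them on chromosomes 3, 10 and 11. The other chromosomes also had 0, so that a count of 0 does not set Un and Sy apart.

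The comparison of *oschz1-1* with WT asks whether loss of the chaperone went with a change of occupancy on these sequences. After 1 was added to both values, 123 nucleosomes (7.73%) were at least 2-fold higher in *oschz1-1* and 133 (8.35%) at least 2-fold lower. Over the whole map these shares were 8.02% and 7.79%, so that the members changed about as often as any nucleosome. On Un, 18 were higher and 17 lower. Of the 1358 on Sy, 105 were higher and 116 lower, and its 8.54% of lower nucleosomes lay above the range of the 12 chromosomes, from 7.25% to 8.05%. Without a short segment described further on, 95 of 1297 nucleosomes of Sy (7.32%) were lower, which is within that range. The segment was picked afterwards for its low values, so that leaving it out lowers this share by construction. Nothing was left out of the chromosomes in the same way. Most of the changed nucleosomes had their summit in a single genotype, namely 104 of the 123 higher (84.6%) and 112 of the 133 lower ones (84.2%), against 90.6% and 88.8% on the chromosomes. Where both genotypes had a summit, signal was at least 2-fold higher in *oschz1-1* at 19 of 1084 nucleosomes (1.75%) and lower at 21 (1.94%). The chromosomes had 1.14% and 1.32%.

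The median log2 ratio of *oschz1-1* to WT was 0.083 on Un and -0.0031 on Sy. The chromosomes ranged from -0.011 to 0.017, so that Un lay above them and Sy among them. The shift on Un is small beside the spread of its single nucleosomes, whose log2 ratios ran from -0.37 at the lower to 0.47 at the upper quartile. It was seen in the long stretch at the beginning, where 98 of 179 nucleosomes were higher in *oschz1-1* (median log2 ratio 0.085), and less in the stretch at the end, where 29 of 54 were (0.044). The window of Un from position 20001 to 30000 had the largest median log2 ratio of the sequence, 0.18 over 56 nucleosomes, and 7.16% of the windows of the chromosomes were as high.

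**Figure D2:**
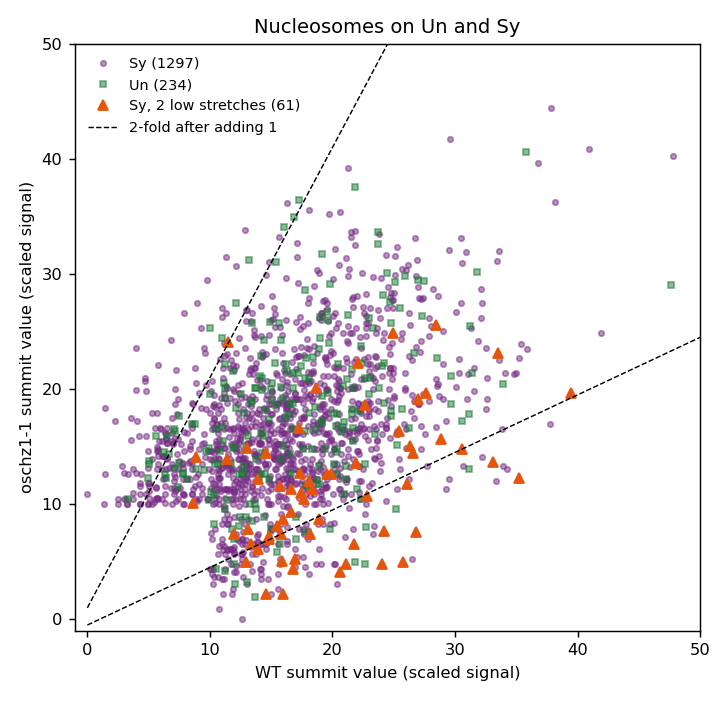
Summit value in *oschz1-1* against that in WT (scaled signal) for the nucleosomes of Un (squares), Sy (circles) and the pair of low stretches of Sy (triangles). Dashed lines mark a 2-fold difference after 1 was added to both values, beyond which 123 nucleosomes lie on the higher and 133 on the lower side.

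The largest single rises and falls, among nucleosomes whose larger value was at least 11.9, had a summit in 1 genotype alone. On Sy, the nucleosome at position 531601 had 1.48 in WT and 18.3 in *oschz1-1*, a log2 ratio of 2.96. It was followed by positions 218741 (2.22 and 17.2) and 262661 (1.48 and 12.7), for which WT had no summit. In the other direction, position 359221, named above for its *oschz1-1* value of 0, had a log2 ratio of -3.77. At position 515316 the values were 16.0 in WT and 2.16 in *oschz1-1*, and at position 337821 they were 20.4 and 3.05. On Un, under the same limit, the largest rise, at position 10721, went from 5.57 in WT to 16.0 in *oschz1-1* (log2 ratio 1.37), and the largest fall, at position 5311, from 13.7 to 1.96 (log2 ratio -2.31). Weaker nucleosomes below the limit rose further, such as position 2986 of Un (3.33 and 10.5, log2 ratio 1.41) and position 216981 of Sy, named above (log2 ratio 3.58). These extremes come from unequal numbers of nucleosomes, and the bulk of the log2 ratios was alike, from -1.17 at the 5th to 1.09 at the 95th percentile on Un and from -1.20 to 1.17 on Sy. Further falls on Un were seen at positions 11731 (22.6 in WT, 4.78 in *oschz1-1*) and 624551 (21.9 and 5.01). None of these falls kept a summit in *oschz1-1*, and none of the rises had a WT summit. The choice of large ratios favours this but does not require it. Their lower values lay below 9.66 in WT or 8.53 in *oschz1-1*, the lowest values of a summit on Un and Sy. Over the whole map, summits were listed down to 3.33 in WT and 4.57 in *oschz1-1*, and some of these lower values lay above that.

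Change was then followed by covered stretch, a definition set after the data had been seen. Of the 39 stretches of Un and Sy, 22 held at least 20 nucleosomes, and 20 of these had a median log2 ratio between -0.14 and 0.20. The remaining 2 are next to each other on Sy. The stretch from position 503661 to 509001 (21 nucleosomes) had a median log2 ratio of -0.62 and that from 510541 to 519316 (40 nucleosomes) one of -0.93. Among the 5939 stretches of that size on the chromosomes, 0 were as low as either, the lowest being -0.48 in a stretch of 92 nucleosomes on chromosome 10. The count rests on how stretches are delimited. By windows of 10000 bp, 1 of 36417 chromosomal windows was as low as the window of Sy that starts at 510001, which holds the same 40 nucleosomes. That chromosomal window was far lower, at -3.66, and 4 were as low as the next lowest of Sy. Deeper falls were thus found on the chromosomes, such as 23 consecutive nucleosomes of chromosome 3 below 1 in *oschz1-1* and at or above 5 in WT. The stretches were singled out for these values, which are given as a description and without a test.

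**Figure D3:**
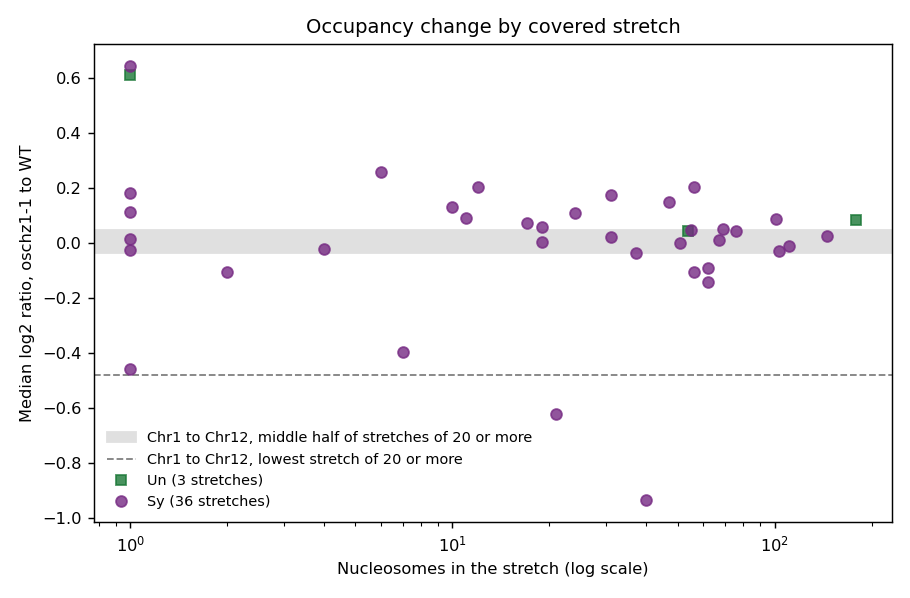
Median log2 ratio of *oschz1-1* to WT against the number of nucleosomes (log scale) for the 3 covered stretches of Un (squares) and the 36 of Sy (circles). The grey band spans the lower to the upper quartile of chromosomal stretches of at least 20 nucleosomes and the dashed line is their lowest value, -0.48, with 2 large stretches of Sy below it at -0.62 and -0.93.

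In this segment of Sy, *oschz1-1* had lower signal at 54 of 61 nucleosomes and higher signal at 7. The median summit value of the 61 was 18.2 in WT and 11.4 in *oschz1-1*, while the other 1297 nucleosomes of Sy had 15.7 in both genotypes. The ratio of summed signal, *oschz1-1* to WT, was 0.697 in the first stretch and 0.524 in the second, against 1.01 over the rest of Sy. WT thus lay above the usual level and *oschz1-1* below it. The stretches were picked for their low ratios, so that high WT values and low *oschz1-1* values are what the choice itself favours. At least 2-fold lower signal was found at 21 of the 61 nucleosomes (34.4%) and at least 2-fold higher signal at 1.

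The fall was made up of weaker nucleosomes at kept positions and of summits no longer listed. A summit was shared at 16 of 21 nucleosomes of the first stretch, which is 76.2%, and at 17 of 40 of the second, which is 42.5%. WT alone had a summit at 25 of the 61 and *oschz1-1* alone at 3. Among the shared ones, 28 of 33 were lower in *oschz1-1*, with a median log2 ratio of -0.52 and a median displacement of 20 bp, which is the usual one. At position 511751, WT had 35.2 and *oschz1-1* 12.3 with summits 10 bp apart. At position 518441, the values were 39.5 and 19.6. A summit was lost at position 513291 (24.0 in WT, 4.78 in *oschz1-1*), at position 512261 (25.8 and 5.01) and at position 518071 (20.6 and 4.14). Some neighbours were equal in both maps, such as position 518611 with 24.9 in each and position 508281 with 22.1 in WT and 22.3 in *oschz1-1*. Distances between *oschz1-1* summits were longer here than those of WT, with medians of 250 bp and 220 bp in the first stretch. In the second stretch they were 235 bp and 190 bp. Fuzziness over all 61, with or without a summit in the genotype, had medians of 50.9 in WT and 52.3 in *oschz1-1*. At the 33 shared nucleosomes it hardly differed, with a median change of -0.065. Over the 1149 nucleosomes of Sy before the segment the median log2 ratio was 0.027 and over the 148 after it -0.0054. The stretch that follows directly, from position 521271 to 532721, was not level, with -0.14 over 62 nucleosomes (36 lower and 26 higher), the lowest of the other 20. Its window from position 520001 to 530000 had -0.23 over 46 nucleosomes, below the 5th percentile of the chromosomal windows, -0.19. Genotype and plants go together here, and the copy number of the segment in the plants was not analysed here. A change of chromatin and a difference in DNA between the plants cannot be told apart.

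**Figure D4:**
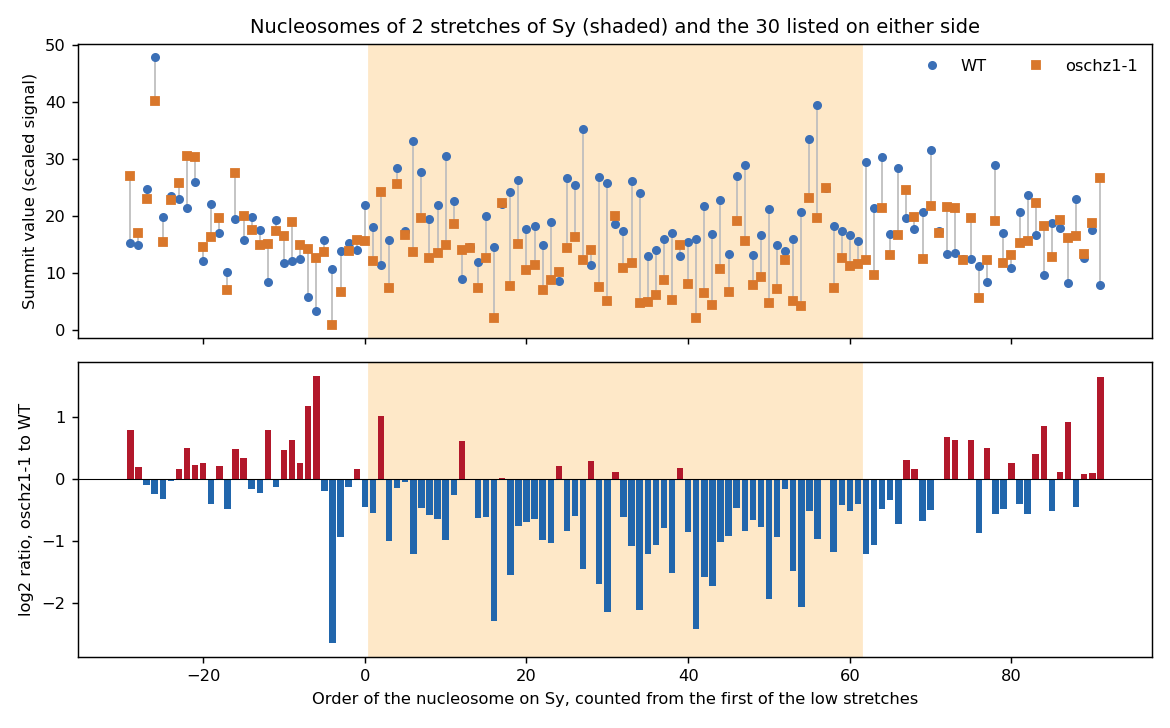
Summit values (scaled signal, circles WT, squares *oschz1-1*) and log2 ratios of *oschz1-1* to WT for the 61 nucleosomes of the low stretches of Sy (shaded) and the 30 listed on either side, by their order on the sequence. Inside the shading 54 of 61 bars point down.

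Nucleosomes of Un were fuzzier than those of the chromosomes. Their median fuzziness was 55.3 in WT and 54.9 in *oschz1-1*, while the chromosomes lay between 53.2 and 53.4 in either genotype. Sy, at 53.5 in WT and 53.6 in *oschz1-1*, lay just above that range. The higher fuzziness of Un was also seen at matched occupancy. Within deciles of the summit value set on the chromosomes, it was above them in 9 of 10 deciles in WT and in 10 of 10 in *oschz1-1*, by 2.24 and 2.02 on average. For Sy the averages were 0.40 and 0.43, with 6 and 7 of 10 deciles higher.

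Along Un the excess was uneven. Window medians are taken over all listed nucleosomes, with or without a summit in the genotype. Its windows from position 1 to 10000 and from 10001 to 20000 had WT medians of 56.7 and 57.4, and 1.83% and 0.404% of the chromosomal windows were as high. In *oschz1-1* these windows had 55.4 and 56.4, values that 13.9% and 2.82% of the chromosomal windows reached. The window from 20001 to 30000 had 55.3 in WT and 54.2 in *oschz1-1*, reached by 17.0% and 44.2% of the chromosomal windows. That from 30001 to 40000 had 56.5 and 55.7 over 15 nucleosomes, reached by 2.55% and 9.77%. The last window, from position 620001 to 630000, had 54.7 in WT and 53.8 in *oschz1-1*, which is ordinary. All 5 windows of Un were less fuzzy in *oschz1-1* than in WT. At the 158 nucleosomes of Un with a summit in both maps, the median difference, *oschz1-1* minus WT, was -1.05, with 87 lower and 71 higher. On Sy it was 0.049, with 466 higher and 460 lower, and on the chromosomes it ran from 0.057 to 0.13. The difference of Un lay outside the chromosomal range, but it is small beside its own spread, from -10.0 at the 5th to 7.14 at the 95th percentile.

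Low fuzziness was found beside the empty stretches, chiefly those of Sy, which held 64 of the 67 nucleosomes next to one. The median fuzziness there was 48.0 over the 58 nucleosomes with a WT summit and 49.1 over the 53 with an *oschz1-1* summit. Inside the covered stretches it was 53.9 over 1274 nucleosomes in WT and 53.8 over 1291 in *oschz1-1*. Over the 44 nucleosomes beside an empty stretch with both summits, the medians were 48.3 in WT and 49.2 in *oschz1-1*. On the chromosomes the WT medians of these places were 45.4 and 53.3, by the WT summits. The 7 nucleosomes that were empty on both sides all had a summit in both genotypes, and their median was 39.5 in WT and 44.2 in *oschz1-1*. The lone nucleosome of Un, at position 85911, had a fuzziness of 39.2 in WT and 37.2 in *oschz1-1*, with summits 10 bp apart and values of 10.5 and 16.6. On Sy, the lone nucleosome at position 369276 had 37.8 and 34.8, with summits 5 bp apart and values of 15.6 and 15.3. An exception was position 208251 of Sy with 52.5 and 52.4.

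**Figure D5:**
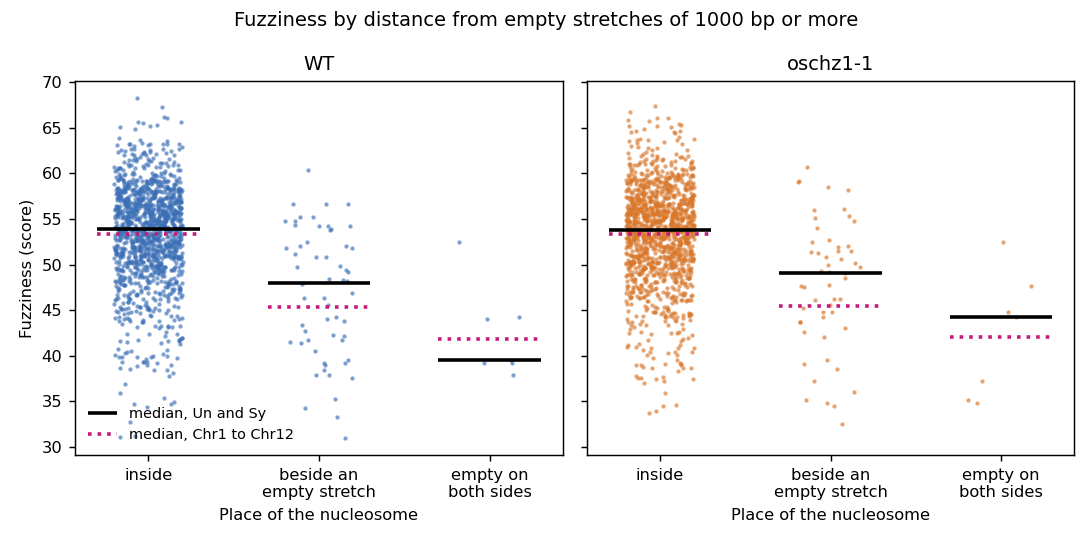
Fuzziness (score) of nucleosomes of Un and Sy with a summit in the genotype, by place, with WT on the left and *oschz1-1* on the right. Points are nucleosomes, black lines their medians and dotted lines the medians of chromosomes 1 to 12. The WT medians fall from 53.9 inside to 48.0 beside an empty stretch and 39.5 where both sides are empty, and the last group is part of the middle one.

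The extremes of fuzziness were looked up at nucleosomes with both summits. The lowest WT scores of Sy were 31.2 at position 350156, whose listed neighbours lie 415 and 320 bp away, and 32.7 at position 166951, with neighbours at 395 and 190 bp. Both stayed low in *oschz1-1*, with 39.0 and 37.2. A low WT score was also found at ordinary spacing, as position 349551 had 34.9 with neighbours at 190 bp on either side. On Un, the lowest was 38.0 at the first listed nucleosome, position 111. The highest WT scores of Sy were 68.3 at position 305381 and 67.3 at position 104681, which lie 110 to 135 bp from their neighbours, and they were 58.0 and 54.2 in *oschz1-1*. As these were picked for extreme WT values, a move towards the middle in the other map is what the choice itself favours.

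Displacement of summits between the genotypes was like that of the map. At the 1084 shared nucleosomes the median distance between the summits was 20 bp, 25 bp on Un and 20 bp on Sy, and 125 summits (11.5%) had not moved. At 228 nucleosomes (21.0%) the summits lay 50 to 90 bp apart, against 22.4% over the map. The share was 23.4% on Un (37 of 158) and 20.6% on Sy (191 of 926), and the chromosomes ran from 22.0% to 23.4%. The upper end was again that of chromosome 7, and the next highest was 22.7% on chromosome 12. Of the 228, 118 were displaced towards higher and 110 towards lower coordinates. Sy thus held slightly fewer displaced nucleosomes than any chromosome, a difference that cannot be weighed without replicates.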

How the data were processed

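Micrococcal nuclease fragments of mononucleosome size were sequenced in pairs from 2 libraries of WT and 2 of *oschz1-1*. The authors trimmed the reads, aligned them to MSU7 with Bowtie2 (version 2.3.4.1 in the submitters' processing notes), discarded low mapping quality and duplicates with Samtools, and called nucleosomes with DANPOS. The options of DANPOS are not given in the sources used here. Repeated sequence can therefore be thinly represented in the table.

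Occupancy is a signal that the authors scaled and merged to 1 value per genotype. Fuzziness is a score deposited by the authors. Control columns stand for WT and treatment columns for *oschz1-1*, a reading based on the study's methods, and 0 value columns were unmapped. The authors' 6 columns of p-values and FDRs were not used.

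Log2 ratios had a pseudocount of 1, a change was called at 2-fold, and 1000 bp without a summit counted as empty. Named nucleosomes were, on each sequence, the 3 with the largest rise and fall (larger value at least 11.9, the lower quartile of mean occupancy), the 3 of highest WT value and the 2 of lowest and highest WT fuzziness. Nucleosomes named for the low segment of Sy were chosen after their values were seen. Members and lists were chosen with earlier results of these data known. The functions were tested on simulated data. No genome sequence or annotation of MSU7 was used, so no gene or base sequence is given. Python 3.11.15, numpy 2.4.6, pandas 2.3.3 and matplotlib 3.10.9 were used.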

Additional observations from a re-analysis of the deposited data

How the results depend on the processing

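No paired analysis was possible because each genotype has 1 merged value, and for that reason no replicate was left out either. Nothing here says how the values would vary between plants.

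The 123 higher and 133 lower nucleosomes became 37 and 60 with a pseudocount of 5, 298 and 306 at 1.5-fold, 8 and 14 at 4-fold, and 19 and 21 with a summit in both genotypes, all by construction. Taken alone, Un had 18 higher and 17 lower nucleosomes, 158 with both summits and 37 displaced ones. The 228 displaced nucleosomes became 356 for 40 to 90 bp and 82 for 70 to 90 bp.

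The median log2 ratio of Un and Sy together, 0.0039, has no stable sign. It was -0.0027 where the larger value was at least the lower quartile, 0.0015 with both summits, 0.083 on Un, -0.0031 on Sy, -0.25 by the occupancy at the point that the authors chose for its difference (325 of 1592 nucleosomes hold one), and 0.027 without the low segment of Sy, a setting chosen after seeing the data. The cause was not tested.

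Relative to the chromosomes, the median summit value of Un alone was 1.09 times as high in WT and 1.12 times in *oschz1-1* (1.03 and 1.03 with Sy). The excess of fuzziness in WT, 0.53, became 2.03 on Un and 0.22 on Sy. That in *oschz1-1*, 0.35, became 0.22 over all listed nucleosomes, 0.55 above the lower quartile, 0.64 within deciles and 1.58 on Un. In the second stretch of the low segment, the log2 ratio of -0.93 was -0.52 at nucleosomes with both summits. Spacing and the share of empty span kept within 1.5 times their values.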
